A study of Olea europaea var. sylvestris with 6 samples.

Results

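In the stems of wild olive, 46 of the 50668 genes in the deposited count table had at least 10 counts in each of 3 libraries of the genotype AC15 and no count in any of 3 libraries of the genotype AC18. These counts themselves chose the genes, so the difference between the genotypes is the rule and not a finding. What follows describes how strongly the 46 genes were expressed in AC15, how well its libraries agreed on them, how libraries left out of the choice behaved, and what lay next to them in the numbering of the identifiers.

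The plants were Olea europaea var. sylvestris, untreated and grown on their own roots from cuttings, 6 to 10 months old and 40 to 52 cm tall, with 2 months in a greenhouse before sampling. The submitters class AC15 as susceptible and AC18 as tolerant to Verticillium wilt, and each class is 1 variety, so nothing here separates tolerance from any other difference between these varieties. Polyadenylated stem RNA was sequenced from 3 biological replicates of each genotype, and the libraries held 7468058 to 8589143 counts. No pathogen was applied in any group.

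Verticillium wilt is caused by a soil-borne fungus that enters through the roots and spreads in the water-conducting xylem, so the stem is a tissue the fungus passes through. Olives are outcrossing trees, and plants of such species are known to differ in which genes they carry as well as in how strongly they transcribe them. A count of 0 in an RNA library shows that no read, or at most a fraction lost to rounding, was assigned to that identifier. It does not tell a gene that is not in the genome from one that is not transcribed in the stem, or from one whose reads were assigned to a near-identical copy. In whole stems, fewer cells of a type and less RNA per cell cannot be told apart either.

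The identifiers come without gene names. A RefSeq table of 47911 wild olive genes contained 0 of them, so products, positions and sequences of the 46 genes are not given here, and the labelled tissue could not be checked against marker genes. Each gene is called by its identifier, a number followed by a suffix. The suffix was 1 for 40 of the 46 genes, 2 for 5 and 4 for 1 (Oeu059881.4). A suffix above 1 was thus carried by 13.0% of these genes, by 9.51% of all identifiers in the table and by 16.5% of the 22048 genes with at least 10 counts in each AC15 library.

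Most of the 46 genes were expressed at low levels in AC15. Levels are given in CPM, the count scaled by the normalized library total, without correction for transcript length. Over the 3 AC15 libraries the mean level of a gene ran from 1.39 to 25.1 CPM, with a median of 2.83. The median of the 22048 genes with at least 10 counts in each AC15 library was 16.4 CPM, and 45 of the 46 genes lay below it. Their lower quartile was 6.45 CPM, and 40 of the 46 genes lay below that. The rule bears on the level, because it asks for no count in AC18, so this difference was not tested. None of the 46 reached the upper quartile of 40.3 CPM. Only 3 genes reached 10 CPM, 10 reached 5 CPM, 24 lay between 2 and 5 CPM, and 12 lay below 2 CPM.

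The set as a whole took nearly the same part of each AC15 library. Its summed level was 199 CPM in replicate 1, 197 in replicate 2 and 194 in replicate 3, a mean of 197 ± 2.33 CPM (SD, n = 3). These sums rest on 1456, 1664 and 1418 counts, respectively. A single gene held 12.8% of the summed level, the top 3 held 25.3%, and the top 10 held 50.9%.

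**Figure D1:**
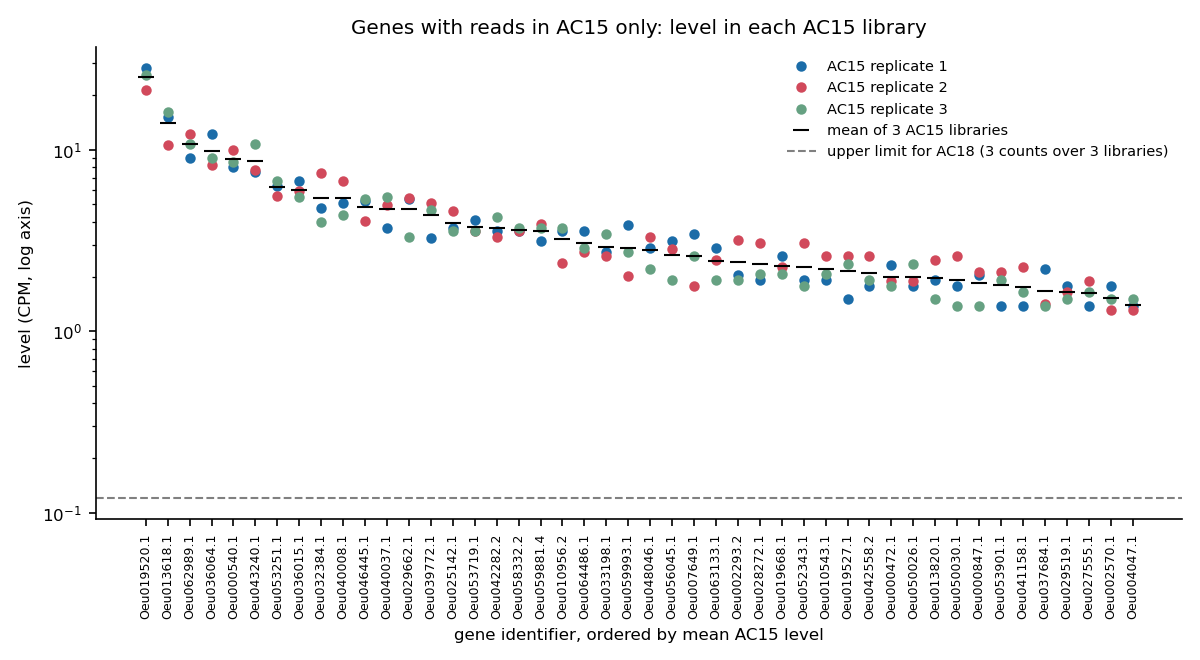
Level of each of the 46 genes in the 3 AC15 libraries, in CPM on a log axis, ordered by the mean (black bars). The levels run from a mean of 25.1 CPM down to 1.39 CPM, and the dashed line at 0.121 CPM is the upper limit that no count in the 3 AC18 libraries allows.

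Oeu019520.1 stood at the top of the set. It had 205, 181 and 189 counts in AC15 replicates 1, 2 and 3, or 25.1 ± 3.38 CPM (SD, n = 3). Still, 37.6% of the genes with at least 10 counts in each AC15 library were at this level or above, so the most abundant gene of the set is a gene of moderate level in the stem.

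Oeu013618.1 followed with 111, 90 and 118 counts in the AC15 libraries, a level of 14.0 ± 2.95 CPM (SD, n = 3). Oeu062989.1 had 66, 103 and 79 counts, or 10.7 ± 1.58 CPM. Replicate 2 was the lowest AC15 library for the former and the highest for the latter, so it did not deviate one way. Oeu036064.1 had 89, 70 and 66 counts, or 9.83 ± 2.06 CPM, with replicate 1 above the other libraries.

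A second tier lay between 5 and 9 CPM. Oeu000540.1 had 59, 85 and 62 counts in the AC15 libraries and Oeu043240.1 had 55, 65 and 79, with levels of 8.87 ± 1.04 and 8.68 ± 1.86 CPM (SD, n = 3 each), so their order is within their spread. Oeu053251.1 had 46, 47 and 49 counts (6.19 ± 0.587 CPM). Its neighbour in the order of levels, Oeu036015.1, had 49, 50 and 40 counts (6.03 ± 0.616 CPM), a difference again smaller than the spread between replicates. For Oeu032384.1 the counts were 35, 63 and 29, or 5.40 ± 1.82 CPM, with replicate 2 far above the others. Oeu040008.1, with 37, 57 and 32 counts (5.39 ± 1.21 CPM), showed the same order of libraries.

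Just below 5 CPM, Oeu046445.1 had 38, 34 and 39 counts (4.85 ± 0.726 CPM, SD, n = 3) and Oeu040037.1 had 27, 42 and 40 (4.71 ± 0.922 CPM). From there the levels declined without a break. At the lower end lay Oeu029519.1 with 13, 14 and 11 counts, Oeu027555.1 with 10, 16 and 12, Oeu002570.1 with 13, 11 and 11, and Oeu004047.1 with 10, 11 and 11. Their means, from 1.65 down to 1.39 CPM, lie near the limit of 10 counts that the rule sets, and their order has no meaning beyond counting error.

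How far AC18 lay below AC15 could only be bounded. A count of 0 allows up to 3 counts over the 3 AC18 libraries together, which is 0.121 CPM. The AC15 mean was 208 times this floor for Oeu019520.1 and 116 times for Oeu013618.1, with no other gene reaching 100-fold. The bound was at least 50-fold for 7 of the genes and at least 20-fold for 27. Its median was 23.4-fold, and its lowest value was 11.5-fold, for Oeu004047.1. The low bounds belong to genes of low level, so they reflect the depth of the libraries. This floor covers counting error alone, because PCR copies of a molecule are counted as separate reads. The genes were also chosen for having no AC18 count, and the error of the AC15 mean is not included. The bounds are therefore a description and not firm limits.

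All 46 genes passed the filter on low counts, and the quasi-likelihood test of edgeR called each of them higher in AC15 at a Benjamini-Hochberg adjusted p under 0.05, where 30.0% of the 24018 tested genes were called in that direction. Nothing can be read from this, since the rule used the same contrast.

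The limits of the rule cut through a continuous range of genes. Of the 46 genes, 7 had exactly 10 counts in their lowest AC15 library and 11 had 10 or 11. Just outside, 6 genes had no count in AC18 and a lowest AC15 count of 8 or 9. The most abundant of these were Oeu063277.1 with 8, 25 and 13 counts, Oeu045977.1 with 9, 16 and 13, and Oeu054705.1 with 8, 13 and 10. A further 45 genes met the AC15 limit and had a sum of 1 or 2 counts over the AC18 libraries. Among them Oeu055163.2 had 275, 317 and 279 counts in AC15 and 2 in AC18 replicate 3. Oeu015433.1 had 156, 217 and 145 in AC15 and 2 in AC18 replicate 1, and Oeu024212.1 had 204, 155 and 143 in AC15 and 2 in AC18 replicate 3. Oeu055163.2 was more abundant in AC15 than any of the 46 genes, and the other two more than all but Oeu019520.1.

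The AC15 libraries ranked the 46 genes alike. The floor of 10 counts in each library takes part in this, because it left out genes of few counts with a large spread, such as Oeu063277.1 above, so the spread within the set is a description. Across the genes, Pearson's r of log2 CPM was 0.882 between replicates 1 and 2, 0.935 between replicates 1 and 3, and 0.905 between replicates 2 and 3. Spearman's rho was 0.807, 0.870 and 0.843 in the same order. These values describe agreement over genes within these libraries, and genes are not independent replicates. The typical gene differed by 1.31-fold between replicates 1 and 2 (median, either way). It was 1.20-fold between replicates 1 and 3 and 1.27-fold between replicates 2 and 3. Over all genes with at least 10 counts in each AC15 library, whose median count was higher, these medians were 1.14, 1.10 and 1.12. The ratio of the highest to the lowest AC15 library ran from 1.04 to 1.93 with a median of 1.47. The floor limits this ratio for genes near 10 counts, and Oeu063277.1, with 8, 25 and 13 counts, lay outside the set.

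**Figure D2:**
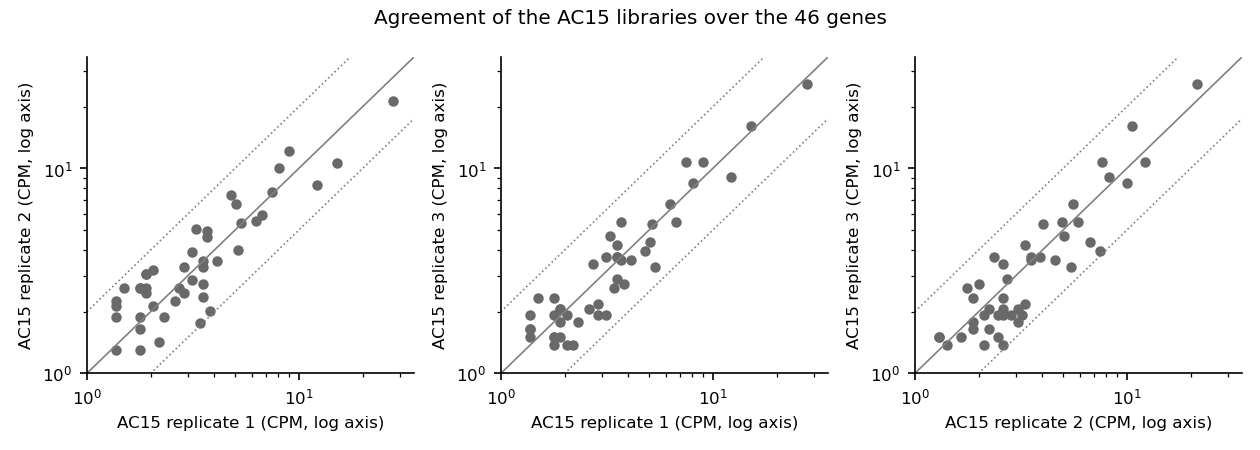
Level of each of the 46 genes in one AC15 library against another, in CPM on log axes, 1 point per gene. The solid line marks equal levels and the dotted lines a 2-fold difference, which no gene reaches. The points lie closest to the line for replicates 1 and 3 (median difference 1.20-fold).

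The spread between AC15 libraries was also set against counting error. The rule used the same counts, so the values of the set support nothing beyond these genes and libraries. A chi-square test compared the counts of each gene with the normalized library totals, over all 22048 genes with at least 10 counts in each AC15 library. After Benjamini-Hochberg adjustment 0 of the 46 genes differed between the AC15 libraries, where 11.8% of all these genes did. At an unadjusted p under 0.05 the test marked 5 of the 46 genes, against 24.9% of all. The test compares these libraries and says nothing on genotypes. It is also weak at low counts: the 46 genes had a median of 21.7 counts per library and all genes together 126. Among genes with a mean under 50 counts 2.89% passed after adjustment and 665 of 5541 without it, and of the 40 genes of the set in that range, 0 passed with adjustment and 1 without. At this depth, extra variation between the AC15 libraries was therefore hardly detectable for most of the set.

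The largest chi-square values belonged to abundant genes, and at equal relative spread this value grows with the count. For Oeu019520.1 the SD was 13.5% of the mean, below the median of 19.9% over the set. For Oeu032384.1 it was 33.6%, the highest of the set. The chi-square value per degree of freedom, which is near 1 for counting error alone, was 5.04 for Oeu013618.1 (adjusted p = 0.053 by the chi-square test), 4.80 for Oeu032384.1 (adjusted p = 0.063), 3.66 for Oeu019520.1 (adjusted p = 0.13) and 3.32 for Oeu036064.1 (adjusted p = 0.16). The first 2 came close to the threshold, with opposite deviations of replicate 2: it was the lowest library for Oeu013618.1 and the highest for Oeu032384.1. Leaving out AC15 replicate 1 brought Oeu013618.1 past the threshold (adjusted p = 0.042). Scaling by library totals alone did so for Oeu032384.1 (adjusted p = 0.049).

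The most even genes had nearly identical counts in the AC15 libraries. Oeu058332.2 had 26, 30 and 27 counts, a chi-square value of 0.0158 per degree of freedom and a coefficient of variation (CV, the SD as a percentage of the mean) of 2.42%. Oeu004047.1 with 10, 11 and 11 counts gave 0.0623, Oeu029519.1 with 13, 14 and 11 gave 0.0806, and Oeu053719.1 with 30, 30 and 26 gave 0.200. The median value of the set was 0.893, and 27 of the 46 genes lay below 1. The median CV was 19.9% for the 40 genes with a mean under 50 counts and 18.6% for all 5541 such genes in AC15.

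Replicate 2 of AC15 was the highest of the 3 libraries for 21 of the 46 genes and the lowest for 15. Over all genes with at least 10 counts in each AC15 library it was the highest for 36.9% and the lowest for 37.1%. Replicate 1 was the highest for 14 genes of the set and replicate 3 for 11. No library was thus above the others for most of the set.

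Whether genes chosen from some libraries behaved alike in libraries not used for the choice was examined by leaving out each library in turn. With AC18 replicate 1 left out, 60 genes met the rule in the other 5 libraries, and 46 of them (76.7%) also had no count in AC18 replicate 1. The other 14 had 1 or 2 counts there. With AC18 replicate 2 left out, 46 of 57 genes (80.7%) had no count in it, and with replicate 3 left out 46 of 58 (79.3%). The highest count in any left-out AC18 library was 3. Genes picked by the remaining libraries thus had at most 3 reads in the AC18 library left out. In each round the 46 were the set itself, which follows from the rule. No share over all genes was set beside these shares, so they are a description.

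On the AC15 side the left-out library was compared with the limit of 10 counts. With AC15 replicate 2 left out, 47 genes met the rule in the other libraries, and 46 of them (97.9%) had at least 10 counts in replicate 2. The exception was Oeu004595.1, with 4 counts there and 12 and 10 in the other AC15 libraries, named after its values were seen. With replicate 3 left out the number was 46 of 50 (92.0%), and the lowest count in that library was 6. With replicate 1 left out it was 46 of 57 (80.7%), and 10 of the 11 genes that missed the limit had 5 to 9 counts in replicate 1. The eleventh, Oeu007886.1, also named after its values were seen, had 3 counts in replicate 1 and 11 and 12 in the others. Here too the 46 were the set itself in each round, by the rule. No share over all genes was set beside these shares either, so they are a description.

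A choice from a single pair of libraries left more libraries out. For each of the 9 pairs of 1 AC15 and 1 AC18 library, genes with at least 10 counts in the former and none in the latter were taken, which gave 109 to 161 genes. In the remaining 2 AC15 libraries at least 98.1% of these genes had reads in both. The share among all genes with at least 10 counts in 1 AC15 library was not computed, so nothing particular to these genes can be read from this. In the remaining 2 AC18 libraries 44.7% to 56.8% had no count in either, and the highest count of any gene chosen there was 10. The 46 genes of the set are among those with no count in every pair, by the rule. A count of 0 in 1 AC18 library of this depth thus did not by itself mean 0 in the others, where the counts stayed at 10 or below.

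The 46 genes were spread over the numbering. Identifiers in the table ran from 1 to 64910, and the sources used here do not say whether their order follows the genome. Over 13 blocks of 5000 numbers, 12 held at least 1 of the genes and the most in a block was 6. The block from 20001 to 25000 held none, although 1741 genes with at least 10 counts in each AC15 library had numbers there. The median step from one gene of the set to the next was 1124 numbers and the largest was 5700.

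**Figure D3:**
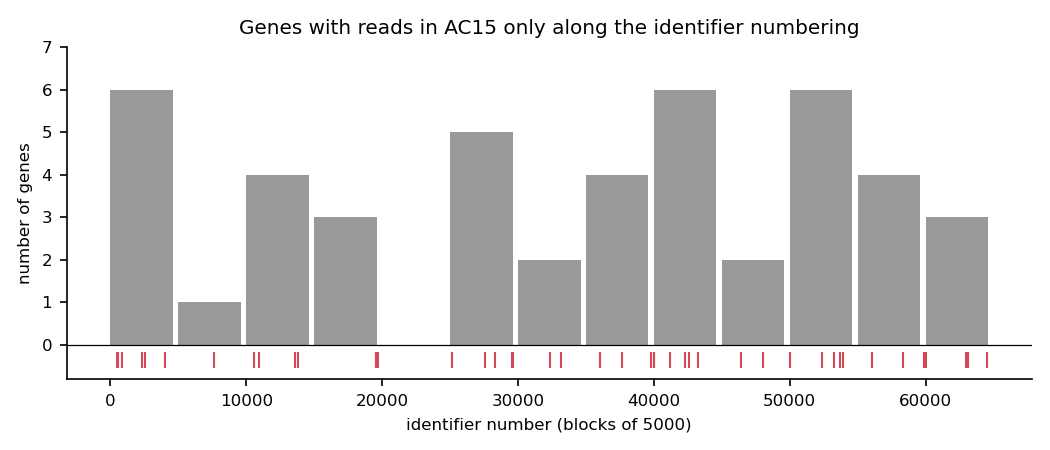
Number of the 46 genes in each block of 5000 identifier numbers (bars) with the number of each gene as a red mark under the axis. Of 13 blocks, 12 hold at least 1 gene and none holds more than 6.

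No run of consecutive identifiers occurred within the set. There were 0 pairs of the 46 genes with numbers that differ by 1, by up to 2 or by up to 3, and 2 pairs within 10 numbers. The first pair was Oeu050026.1, with 13, 16 and 17 counts in AC15, and Oeu050030.1, with 13, 22 and 10, which lie 4 numbers apart. Between them Oeu050028.1 had 47, 54 and 44 counts in AC15 and 59, 67 and 74 in AC18, and Oeu050029.1 had 296, 327 and 249 in AC15 and 300, 286 and 379 in AC18. The reads of AC18 were thus not missing over this stretch as a whole.

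The second pair, Oeu019520.1 and Oeu019527.1, lay 7 numbers apart and differed from the first in what stood between. Oeu019527.1 had 11, 22 and 17 counts in AC15. The gene before it, Oeu019526.1, had 36, 32 and 34 counts in AC15 and 1, 2 and 1 in AC18. One number further, Oeu019525.1 had 41, 29 and 47 in AC15 and 0, 1 and 1 in AC18. The libraries of the genotypes did not overlap for either of these 2 genes, which the rule missed by a few AC18 reads. Identifiers 19521 to 19524, between them and Oeu019520.1, had at most 3 counts in any library of either genotype, too few to compare the genotypes. After Oeu019527.1, Oeu019529.1 had 82, 89 and 78 counts in AC15 and 48, 50 and 46 in AC18, and Oeu019530.1 had 53, 36 and 48 in AC15 and 44, 54 and 78 in AC18. The consecutive identifiers here with at least 10 counts per AC15 library and at most 2 per AC18 library were thus Oeu019525.1, Oeu019526.1 and Oeu019527.1. This holds for this stretch only, and other such neighbours of the set are given below.

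Genes next to the set in the numbering were not generally low in AC18. Of the 92 numbers directly before or after a gene of the set, 74 were in the table. No count in any library was recorded for 22 of these (29.7%), against 33.1% of all identifiers. edgeR tested 36 of the neighbours, whose values the rule did not use, and their median log2 fold change (AC15 minus AC18) was -0.03, against 0.01 for all tested genes. Of the 36, 10 (27.8%) were called higher in AC15 and 14 (38.9%) higher in AC18, where 29.9% and 29.6% of tested genes outside the set were called.

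Large differences were more frequent among the direct neighbours than in the table, in both directions. Of the 36 neighbours, 9 (25%) were called with a fitted difference of at least 4-fold, where 6.65% of tested genes outside the set were. By direction, 4 (11.1%) were higher in AC15 and 5 (13.9%) higher in AC18, against 2.37% and 4.29% of tested genes outside the set. Within 3 numbers it was 16 of 99 (16.2%) and within 10 numbers 29 of 287 (10.1%), each wider window containing the narrower one. Low level moves with such calls: the 36 neighbours had a median level of 8.92 CPM over the 6 libraries and all tested genes 14.3. Among tested genes below 14.3 CPM, 10.7% were called with at least 4-fold outside the set, and among the 22 neighbours below it 7 (31.8%) were. The part of the level in these shares was not tested, and neither was the difference between neighbours and other genes.

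**Figure D4:**
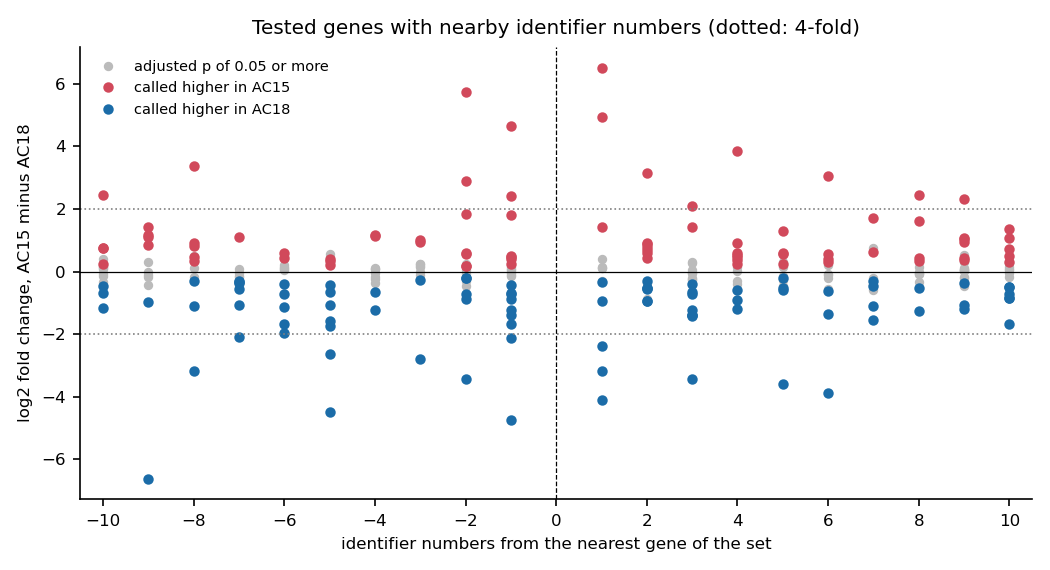
Fitted log2 fold change (AC15 minus AC18) of tested genes against their distance in identifier numbers from the nearest of the 46 genes, 1 point per gene, with the 46 genes left out. Dotted lines mark 4-fold. At a distance of 1 number, 9 of 36 genes lie beyond these lines and are called, on both sides of 0.

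For 4 neighbours the large difference had the direction of the set. Oeu059993.1, with 28, 17 and 20 counts in AC15, was followed by Oeu059994.1, which had 40, 51 and 28 counts in AC15 and 1, 0 and 0 in AC18 (log2 fold change 6.52 ± 0.58 SE, edgeR adjusted p = 4.8e-11). A single read in AC18 replicate 1 kept this neighbour out of the set. Oeu013820.1, with 14, 21 and 11 counts in AC15, was followed by Oeu013821.1 with 41, 47 and 37 in AC15 and 0, 2 and 2 in AC18 (log2 fold change 4.94 ± 0.44 SE, edgeR adjusted p = 6.9e-11). For Oeu019526.1, described above, the log2 fold change was 4.65 ± 0.45 SE (edgeR adjusted p = 3.4e-10). In these 3 cases the AC15 and AC18 libraries lay far apart, with at most 2 counts in any AC18 library.

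The fourth case was a difference between well expressed genes. Before Oeu040037.1, Oeu040036.1 had 1115, 1125 and 1052 counts in AC15 and 219, 214 and 234 in AC18, or 143 ± 9.74 and 26.9 ± 0.701 CPM (SD, n = 3 each). It was 5.32-fold higher in AC15 (edgeR adjusted p = 2.8e-21). The gene before that, Oeu040035.1, named after its values were seen, had 1574, 1583 and 1536 counts in AC15 and 454, 464 and 487 in AC18, a difference of 3.60-fold (edgeR adjusted p = 2e-19). All AC15 libraries were above all AC18 libraries for both genes. On the other side, Oeu040038.1 had 9, 11 and 13 counts in AC15 and 11, 7 and 9 in AC18, so the genotypes overlapped.

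For the other 5 neighbours the large difference ran against the set. Oeu007649.1, with 25, 15 and 19 counts in AC15 and none in AC18, lay between 2 such genes. Oeu007648.1 had 1, 0 and 1 counts in AC15 and 15, 26 and 26 in AC18 (log2 fold change -4.73 ± 0.60 SE, edgeR adjusted p = 7.6e-08). Oeu007650.1 had 6, 4 and 13 in AC15 and 78, 67 and 84 in AC18 (log2 fold change -3.19 ± 0.29 SE, edgeR adjusted p = 6.4e-11). These consecutive identifiers thus alternated between the genotypes. For Oeu007649.1 the direction was set by the rule, and the 2 neighbours were named for their large difference, so the alternation is a description.

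Oeu036015.1, with 49, 50 and 40 counts in AC15, was followed by Oeu036016.1 with 0, 1 and 2 counts in AC15 and 24, 17 and 21 in AC18 (log2 fold change -4.11 ± 0.57 SE, edgeR adjusted p = 3e-07). Each genotype thus had reads almost alone for 1 of these 2 identifiers. After Oeu029662.1, with 39, 46 and 24 counts in AC15, Oeu029663.1 had 149, 208 and 157 in AC15 and 960, 915 and 960 in AC18, a level of 22.2 ± 2.18 and 115 ± 6.66 CPM (SD, n = 3 each). This neighbour was 5.15-fold higher in AC18 (edgeR adjusted p = 3.7e-20). Oeu000846.1, before Oeu000847.1, was the last of the 9, with 3, 2 and 5 counts in AC15 and 18, 19 and 11 in AC18 (log2 fold change -2.12 ± 0.47 SE, edgeR adjusted p = 0.0003). Whether reads of copies with nearby identifiers were divided between them by the counting was not tested. A separate check found no gene of the table with the same 6 counts as a gene of the set. That check cannot answer the question, because divided reads need not give equal counts.

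**Figure D5:**
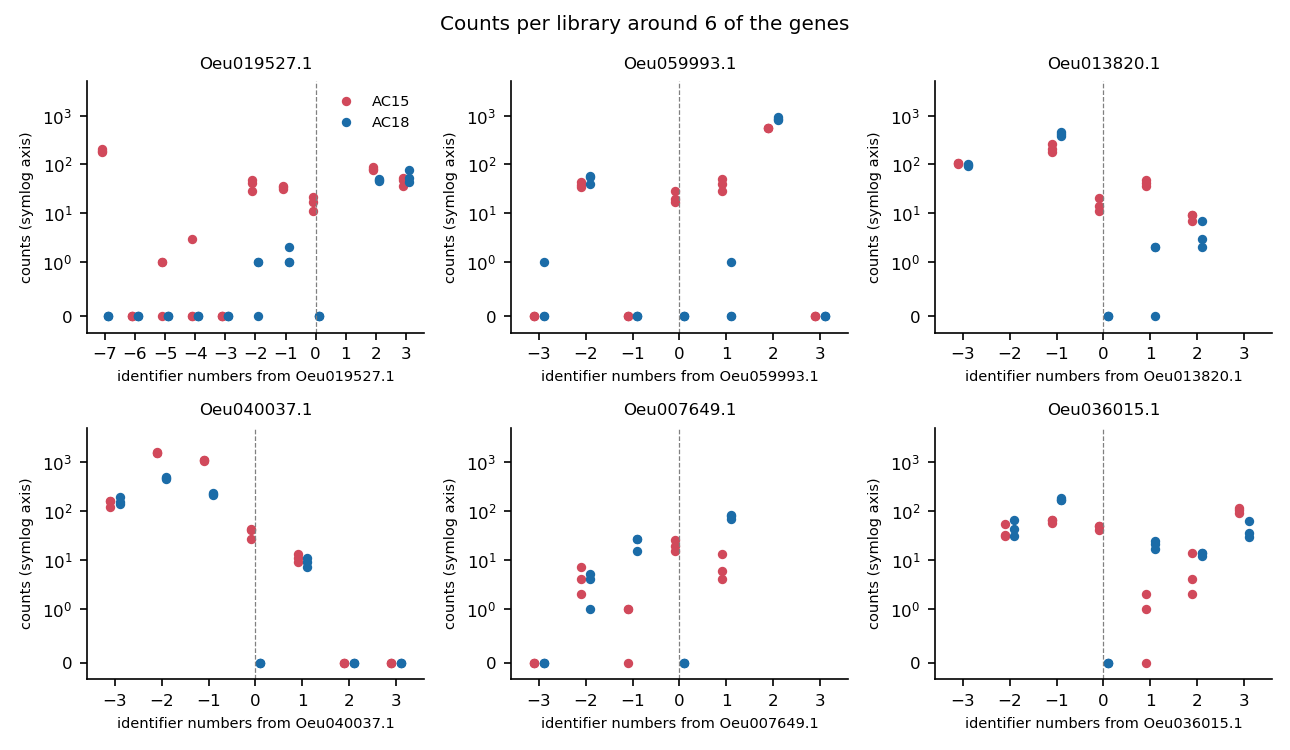
Counts in each library (symlog axis, linear below 1) for identifiers around 6 of the 46 genes, which stand at 0 on the horizontal axis, with AC15 in red and AC18 in blue. The gene before Oeu019527.1, those after Oeu059993.1 and Oeu013820.1 and the one before Oeu040037.1 have more counts in AC15. Both genes beside Oeu007649.1, both beside Oeu036015.1 and the one before Oeu013820.1 have more in AC18.

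Genes with few AC18 reads also occurred near the set. Outside the 46 genes, 71 genes (0.14% of the other identifiers) had at least 10 counts in each AC15 library and at most 2 in each AC18 library. Of these, 4 lay within 3 numbers of a gene of the set, which is 1.9% of the 211 identifiers there. They are Oeu013821.1, Oeu019525.1, Oeu019526.1 and Oeu059994.1, and within 10 numbers there were no more. When they are counted with the set, consecutive numbers occur in 4 pairs, where the 46 genes alone gave 0. For most of the 46 genes the nearby identifiers held no such gene, and 20 of the 46 had no tested gene directly beside them.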

How the data were processed

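Each row of the deposited table is an identifier and each column a library. kallisto 0.46.1, Trimmomatic and FastQC are listed, with no role or order, per the submitters' processing notes. The transcript reference, the build and any rounding were not given in the sources used here. As the values show, the estimated counts deposited by the authors are whole numbers and were used without rounding. kallisto divides reads that match several transcripts, so near-identical copies can share reads.

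The genes, limits and tests were chosen with earlier results of these data known. Levels are in CPM, counts scaled by the TMM-normalized library total. Differences between genotypes were tested over the whole table with edgeR 4.0.16 in R 4.3.3 (robust quasi-likelihood test, filterByExpr with minimum count 10 and total 15, Benjamini-Hochberg adjustment, genotype as the single factor, two-sided), with limma 3.58.1 and DESeq2 1.42.0 as alternatives. Chi-square tests used scipy 1.17.1. The planned permutation test of the neighbours' summed level is not reported, because 3 libraries against 3 cannot reach 0.05 and a few abundant genes carry the sum. Both the fit and the chi-square test were tested on simulated data with known differences. Replicates with the same number were left unpaired, because the labels do not link them. The labels name no batch.

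Genes named with values are the 12 with the highest and 4 with the lowest AC15 level. They also include the 4 with the largest and 4 with the smallest chi-square value between AC15 libraries, and pairs within 3 numbers (none occurred). Added to these are up to 8 neighbours called with at least 4-fold difference, and 3 genes of each kind just outside the rule. Other genes were named after their values were seen. Groupings by gene product could not be made without gene names.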

Additional observations from a re-analysis of the deposited data

How the results depend on the processing

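The number of genes depended on the limits of the rule: it was 89 with at least 5 counts in each AC15 library, 22 with at least 20, 88 with at most 1 count in each AC18 library and 117 with at most 2, against 46. Leaving out single libraries gave 47 to 60 genes. Pairs with consecutive numbers went from 0 to 1 with at most 1 AC18 count and to 4 with at most 2, and 2 pairs lay within 10 numbers. The 46 genes were called under every other normalization, filter, test and left-out library tried, which follows from the rule. Their summed AC15 level was 193 CPM with library totals alone, against 197, a shift beyond the SD of 2.33. Genes that differed between AC15 libraries numbered 1 with library totals alone, and 0 to 1 when an AC15 library was left out. Among direct neighbours, 9 to 12 were called higher in AC15 and 12 to 19 higher in AC18 over all settings. The number tested was 36, but 52 without the filter on low counts and in the DESeq2 test. The median log2 fold change of these neighbours ran from -0.09 to 0.05, so it has no direction. For the count of neighbours with at least 4-fold, alternatives were added after seeing the data. Without the filter it was 16 of 52 tested genes, and in the DESeq2 test 13 of 52. It was 8 to 10 of 36 when single libraries were left out. With the replicate block, 46 genes of the set and 10 and 14 neighbours were called, as without it. Same-numbered libraries did not deviate together (correlations -0.03, -0.01 and -0.04). Of 444 values under 12 alternatives, for 29 tested genes named by rule and 8 of those named after their values were seen, 441 kept direction and call. Much of this was settled beforehand: 18 of the 29 are genes of the set, whose direction the rule fixed. The neighbours among them were named for a called difference of at least 4-fold. The count is therefore a description. Oeu050029.1, not called, ran from -0.11 to 0.03 on the log2 scale when single libraries were left out, and Oeu050028.1 was called under 1 alternative. The log2 fold change of Oeu000846.1 ran from -2.55 to -1.80, so it was not beyond 4-fold under every alternative. Depth limits the bound on AC18 and the test between AC15 libraries for genes of few counts.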
